A study of Homo sapiens with 21 samples.

Results

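The genes described here carry the symbols or symbol prefixes of subunits of the mitochondrial respiratory chain and the ATP synthase. They were taken from both genomes of the cell, and as the choice was by symbol, not every member need be a subunit. Of 37637 rows in the count table, 102 carried a symbol of complexes I to V by its prefix once assembly factors, 49 pseudogenes and 6 antisense or divergent transcripts had been set aside. Of these, 96 reached 10 or more counts in all 21 libraries: 13 genes of the mitochondrial genome and 83 of the nuclear genome. The nuclear genes comprised 38 of complex I, 4 of complex II, 9 of complex III, 13 of complex IV and 19 of complex V. NDUFA4 and NDUFA4L2 were placed in complex IV despite their prefix. Of the nuclear genes, 2 are readthrough genes that share exons with a member (NDUFC2-KCTD14 and ATP5MF-PTCD1). The 6 genes that missed the minimum were COX6B2 (4 to 14 counts), UQCRHL (0 to 9), ATP5MGL (0 to 2), COX4I2 (0 to 1), COX7A1 (0 to 1) and COX8C (0 in every library). The lowest count of any gene kept was 61, in NDUFA4L2. The study exposed HepG2 cells, an established human liver cancer line, for 6 h to 0, 0.01, 0.1, 1, 10, 100 or 1000 µM caffeine, and 3 libraries were sequenced for each of the 7 groups. All groups, the 0 µM controls included, were washed and moved to fresh DMEM without serum, and the labels call the replicates biological without saying whether they were separate cultures, so p-values measure the spread between these libraries.

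Respiratory complexes I to IV pass electrons from NADH and succinate to oxygen, complexes I, III and IV pump protons across the inner mitochondrial membrane, and complex V uses the gradient to make ATP. Complexes I, III, IV and V are built from subunits of both genomes, while all subunits of complex II (succinate dehydrogenase) are nuclear. The mitochondrial genome is transcribed inside the organelle as long precursors from each strand that are cut into single mRNAs. Nuclear subunit genes are transcribed one by one, and the factors NRF1, GABP and YY1 and the coactivator PGC-1alpha (PPARGC1A) are known regulators of many of them.

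Total counts ran from 28043623 to 40827833 per library. The 9 liver and HepG2 markers checked, among them ALB, AFP and HNF4A, summed to 23392 to 29729 CPM (a gene's count relative to the scaled library total), and the markers of blood, endothelium and fibroblasts summed to at most 0.343 CPM in any library. Some libraries stood apart within their group. In 0.01 µM replicate 1 the readthrough gene NDUFC2-KCTD14 was at 64.2 CPM against 17.6 and 17.5 CPM in replicates 2 and 3, while NDUFC2 was at 64.1 CPM against 146 and 172 CPM. In 1 µM replicate 3 the 13 mitochondrial genes took 14.2% of all counts, against 4.94% and 7.79% in replicates 1 and 2. The plot of all genes by library shows both departures.

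**Figure D1:**
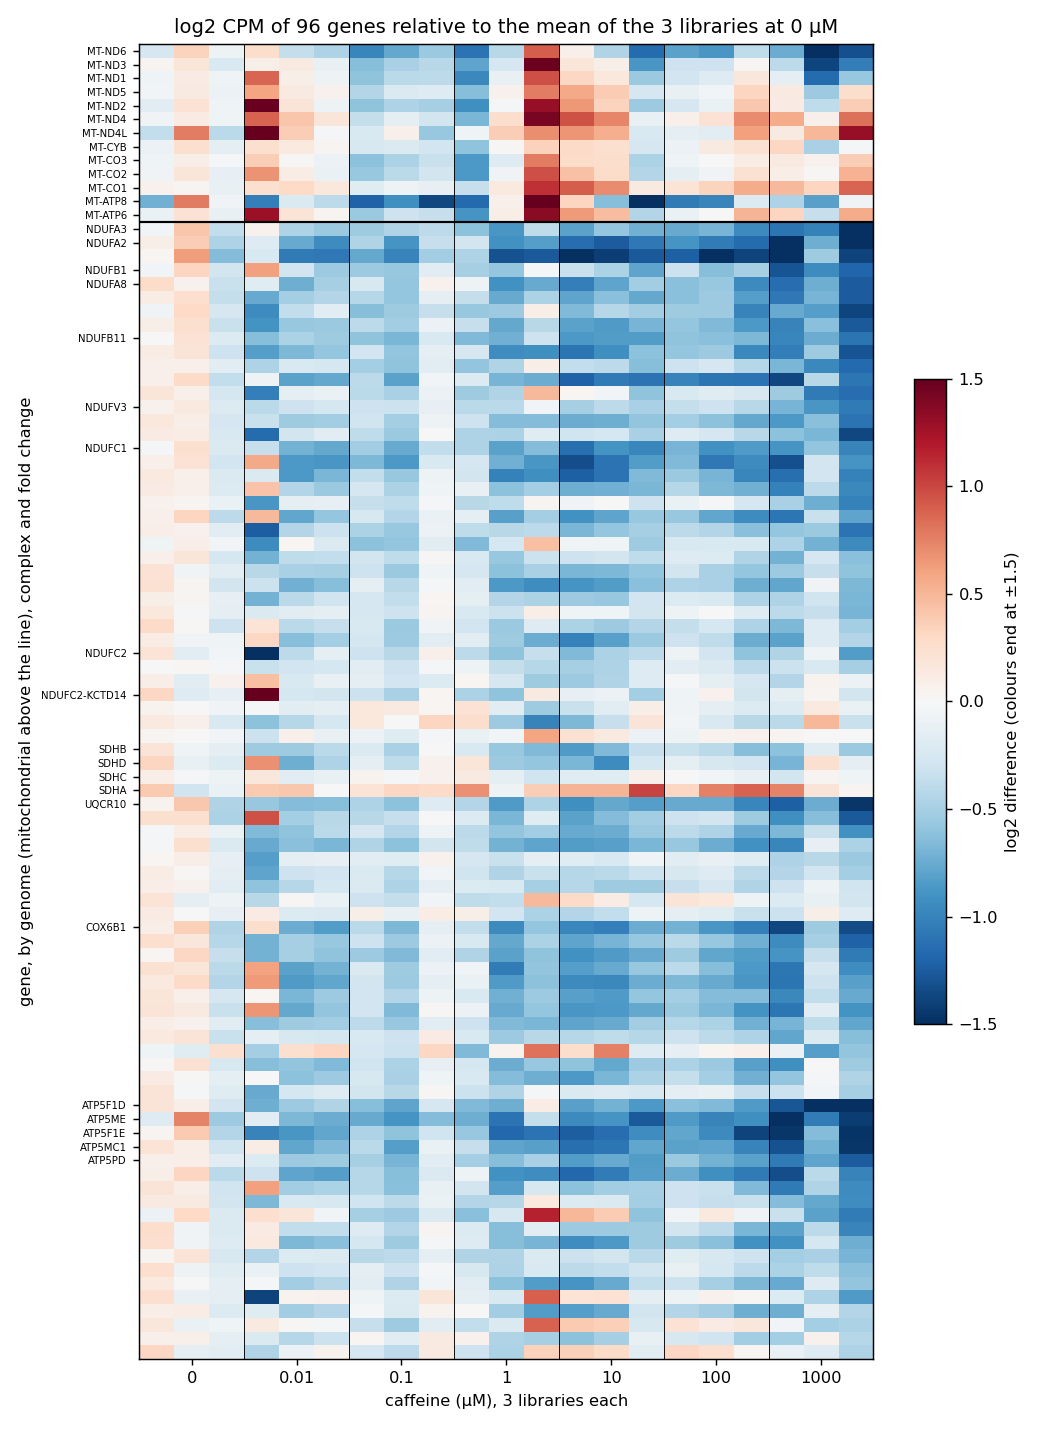
Level of each of the 96 genes (rows) in each of the 21 libraries (columns, by caffeine dose in µM), as log2 CPM relative to the mean of the 3 libraries at 0 µM. Mitochondrial genes lie above the line, names are given for the genes described in the text by rule and for the readthrough pair, and most nuclear rows are blue, which is lower than at 0 µM, at every dose, while the mitochondrial rows change from library to library.

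The genomes differed first in their share of the transcripts counted. At 0 µM the 83 nuclear genes took 0.935%, 0.933% and 0.785% of all counts, and at 1000 µM 0.563%, 0.721% and 0.535%. The groups did not overlap, and the means were 0.885% ± 0.0860 and 0.606% ± 0.101 (SD, n = 3 each). The 13 mitochondrial genes took 6.93%, 7.86% and 6.99% at 0 µM and 8.72%, 6.93% and 10.2% at 1000 µM, with means of 7.26% ± 0.520 and 8.63% ± 1.66 (SD, n = 3 each). These groups overlapped. The ratio of mitochondrial to nuclear counts was 7.40, 8.42 and 8.90 at 0 µM, and 15.5, 9.61 and 19.2 at 1000 µM. It was above every control in all 3 libraries at 0.01, 10, 100 and 1000 µM, ran from 7.10 to 9.12 at 0.1 µM and spread from 6.06 to 21.7 at 1 µM. No test was made on these sums. They are relative to all mRNA counted, and in bulk RNA fewer cells with a transcript and less of it per cell cannot be told apart.

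**Figure D2:**
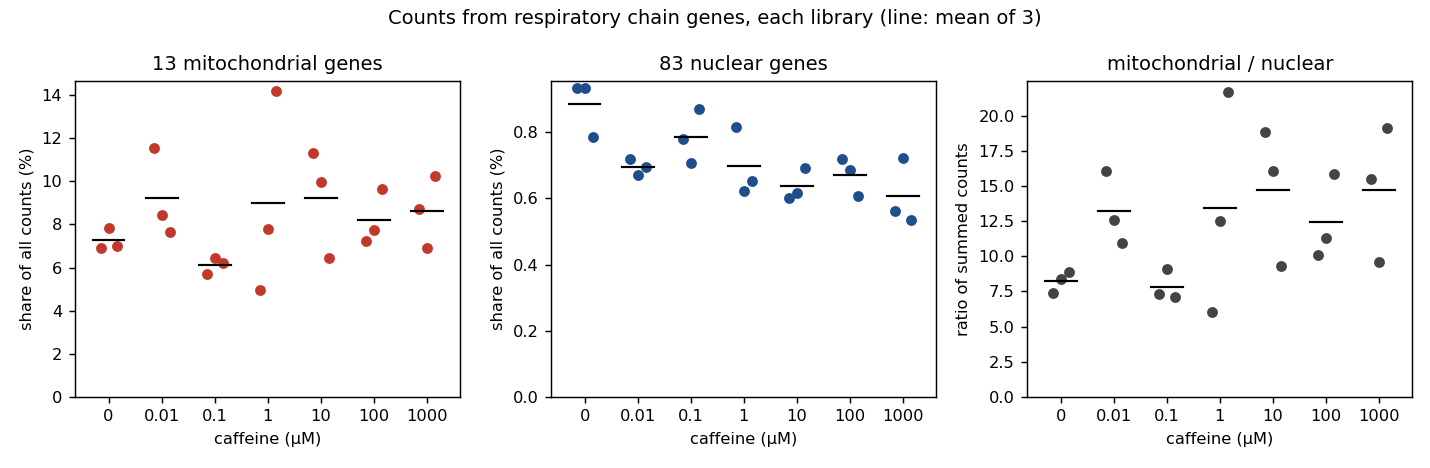
Share of all counts (%) from the 13 mitochondrial genes and from the 83 nuclear genes, and the ratio of the sums, by caffeine dose (µM); points are libraries and lines the mean of 3. The nuclear share at 1000 µM lies between 0.535% and 0.721%, under the lowest control at 0.785%, while the mitochondrial shares of the same groups overlap.

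The mitochondrial genes were among the most abundant transcripts. Per kilobase of transcript, their median levels over the libraries ran from 708 CPM for MT-ATP8 to 14221 CPM for MT-CO1, the catalytic core of cytochrome c oxidase, against 2.51 to 299.7 CPM per kilobase for the nuclear members. MT-CO2 (13047) and MT-CO3 (10080), the other mitochondrial subunits of that enzyme, came next, then MT-ND4 (8999), MT-ND5 (5488) and MT-ND1 (5318 CPM per kilobase), which belong to the membrane arm of complex I. Neighbours in this order were not separated by a test. In the median, mitochondrial genes varied more between libraries of a dose than nuclear ones. The median SD of log2 CPM within groups was 0.512 for the 13 mitochondrial genes, 0.255 for the 83 nuclear genes and 0.211 over all 17468 genes tested. Single genes overlapped, with SDs from 0.285 to 0.804 for mitochondrial and from 0.130 to 0.473 for nuclear members. At 1000 µM the median 95% interval reached 0.771 to either side of a mitochondrial log2 fold change and 0.401 for a nuclear one, so changes smaller than that were mostly not detectable.

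MT-ND6 alone among the 13 passed the test at 1000 µM against 0 µM. It encodes a complex I subunit and is the only protein gene read from the other (light) strand, at chrM:14149-14673 (GRCh38, minus strand), and its mRNA is known to carry little or no poly(A) tail, while the libraries were made from poly(dT)-selected RNA. Its level was 712, 1069 and 807 CPM at 0 µM and 509, 201 and 340 CPM at 1000 µM, without overlap. The log2 fold change was −1.30 ± 0.42 (SE, adjusted p 0.019, edgeR). That call rested on single libraries, with an adjusted p of 0.072 without 0 µM replicate 2, of 0.089 without 1000 µM replicate 2 and of 0.061 without 1000 µM replicate 3. Against the 0.1 µM libraries (431, 499 and 578 CPM) the log2 fold change was −0.52 (adjusted p 0.38). Among all genes tested 20.6% were lower at 1000 µM, so 1 lower gene of 13 (7.69%) was no more than the background. Whether the counting used strand is not given in the sources used here, so reads of either strand at MT-ND6 cannot be told apart.

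The other mitochondrial complex I genes did not move one way at 1000 µM. MT-ND3 was at 1137, 1262 and 949 CPM at 0 µM and at 846, 428 and 540 CPM at 1000 µM. All were below every control, and the log2 fold change, −0.88 ± 0.40, missed the threshold (SE, adjusted p 0.088). It passed with only the 6 libraries compared (adjusted p 0.013) and with the 1 µM reference (−1.36, adjusted p 0.023). With the 0.1 µM reference it did not pass (−0.36, adjusted p 0.55). The 1 µM libraries were at 640, 931 and 3075 CPM for MT-ND3 and overlapped with those at 1000 µM. MT-ND1 was also below every control, with 4937, 2465 and 3687 CPM against 5246, 5951 and 5243 CPM and a log2 value of −0.57 ± 0.36 (SE, adjusted p 0.22). MT-ND4, by contrast, was on the positive side by 0.51 ± 0.37 on the log2 scale (SE, adjusted p 0.28), and it passed with only the 6 libraries compared (adjusted p 0.033). MT-ND4L, MT-ND2 and MT-ND5 had values of 0.62, 0.06 and −0.01 with adjusted p of 0.25, 0.93 and 0.98. The genes of MT-ND4L and MT-ND4 share bases, and so do those of MT-ATP8 and MT-ATP6, 2 subunits of the ATP synthase. Reads there can belong to either gene, which touches the short members most. The shared stretches are shown because they limit what the counts of MT-ND4L and MT-ATP8 can show. They are in capitals, with 20 and 12 flanking bases on each side in lower case, from the plus strand of chrM:10740-10786 and chrM:8515-8584 (GRCh38, GENCODE v29 transcripts).
MT-ND4L/MT-ND4: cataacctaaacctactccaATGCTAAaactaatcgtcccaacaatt
MT-ATP8/MT-ATP6: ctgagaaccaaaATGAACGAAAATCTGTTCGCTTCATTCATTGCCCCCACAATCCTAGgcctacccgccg
The overlap spans 7 bases for the first pair and 46 for the second. MT-ATP8 was the most variable member, with an SD within groups of 0.804 on the log2 scale and levels of 139, 391 and 220 CPM at 0 µM and 166, 130 and 220 CPM at 1000 µM.

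In complexes III and IV, MT-CYB, the cytochrome b gene, was at 1780, 2227 and 1701 CPM at 0 µM and at 2348, 1346 and 1871 CPM at 1000 µM. The groups overlapped, and the log2 difference was −0.04, with a 95% interval from −0.47 to 0.40. MT-CO1 was at 19795, 19572 and 17608 CPM at 0 µM and at 26561, 23715 and 34670 CPM at 1000 µM, above every control (25.9% of all genes were), and its log2 difference of 0.58 ± 0.25 missed the threshold (SE, adjusted p 0.076). It passed with DESeq2 (adjusted p 0.045), without the filter on low counts (0.044) and with only the 6 libraries compared (0.0093), but not with 1 µM as the reference (0.15, adjusted p 0.71). Its libraries were above every control at 0.01 µM too (22398, 23328 and 21129 CPM, adjusted p 0.60), where 15.7% of all genes were, at 10 µM (35735, 30990 and 20906 CPM, adjusted p 0.085), where 22.4% of all genes were, and at 100 µM (21928, 23944 and 27986 CPM, adjusted p 0.37), where 21.0% of all genes were. For MT-CO2 and MT-CO3 the differences were 0.22 and 0.19 (adjusted p 0.61 and 0.60). At the other doses edgeR called 0 of 13, while the share of all genes called was 4.95% for 0.01 µM, 0.00% for both 0.1 and 1 µM, 22.0% for 10 µM, and 6.02% for 100 µM. At an unadjusted p under 0.05 1 of 13 passed at 0.1 µM and 1 at 10 µM, and 0 at 0.01, 1 and 100 µM. Of all 17468 genes, 4567, 2651, 3980, 6274 and 4467 passed that cut from 0.01 to 100 µM. DESeq2 called 1 at 10 µM and 0 in each of the other 4 groups. All 13 fold changes were negative at 0.1 µM, where 11 genes had all 3 libraries below the controls, against 12.4% of all genes tested, and 0 had all above, against 10.1%. Nuclear copies of mitochondrial genes, 116 of which are in the table, held counts equal to 1.44% to 2.66% of those of the 13 genes, and reads could fall to either.

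**Figure D3:**
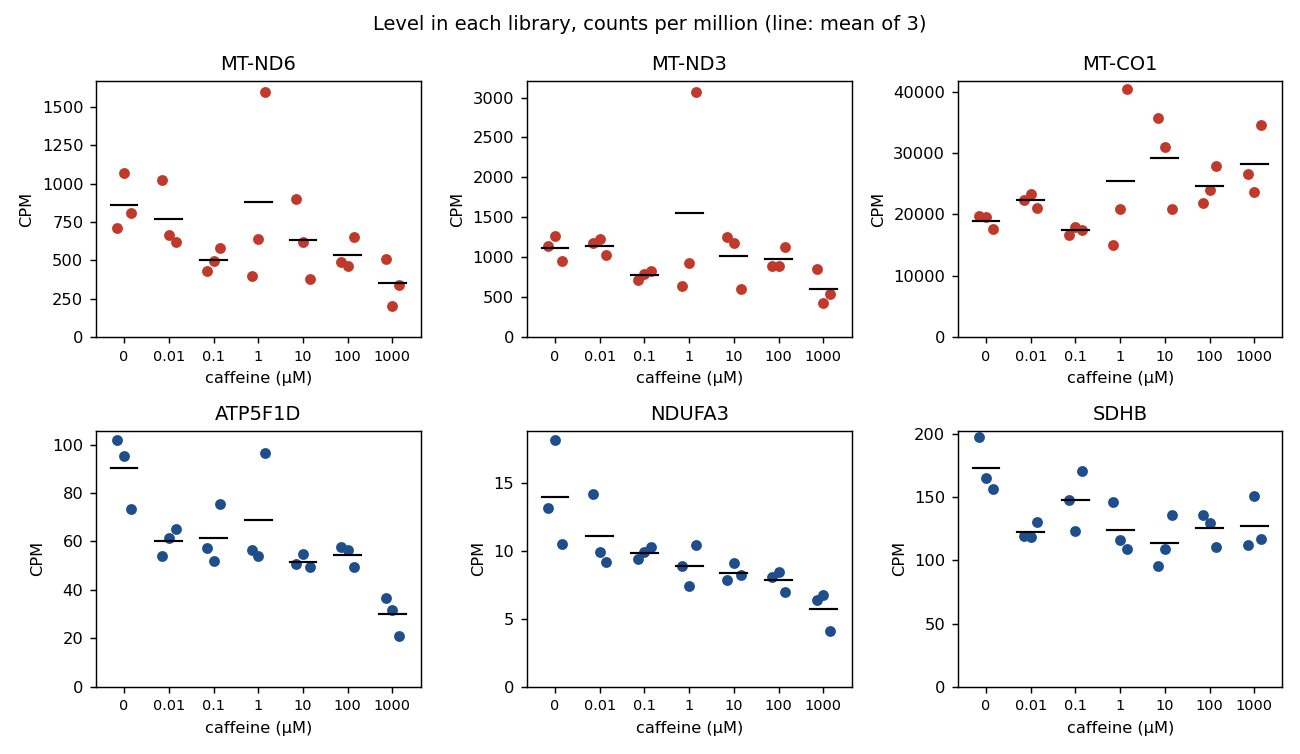
CPM in each library (points) and the mean of 3 (line) by caffeine dose (µM) for MT-ND6, MT-ND3 and MT-CO1 of the mitochondrial genome and ATP5F1D, NDUFA3 and SDHB of the nuclear genome; every vertical axis starts at 0. MT-ND6 and ATP5F1D at 1000 µM lie below all 3 controls, and MT-CO1 lies above them.

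The fall in the nuclear share was spread over many genes. At 1000 µM 55 of 83 (66.3%) were lower and 0 were higher, against 20.6% lower and 20.6% higher among all genes tested, and 81 of 83 fold changes were negative. The median log2 fold change was −0.69, against −0.03 over all genes. In 50 of the 83 all 3 libraries lay below all 3 controls, against 27.3% of all genes. The largest fall was in ATP5F1D, the delta subunit of the ATP synthase, and 13 of the 19 nuclear complex V genes were lower. With the length and GC correction described next, ATP5F1D was at −0.78, behind ATP5F1E at −1.44 and NDUFV3 at −1.06. That order can depend on the transcript taken, of 997 bases and 69.6% GC for ATP5F1D and 3665 bases and 38.7% GC for ATP5F1E.

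Short transcripts as a whole were lower than in the controls at every dose, and many nuclear subunits are short. The mean shift of non-member genes under 1000 bases was −0.30, −0.28, −0.32, −0.41, −0.32 and −0.62 on the log2 scale from 0.01 to 1000 µM, and every treated library was below all 3 controls except at 0.1 µM, where the groups overlapped. The 0 µM libraries thus differed along transcript length from those at 0.01, 1, 10, 100 and 1000 µM, and from those at 0.1 µM only in the mean. The labels name no batch, and every comparison with 0 µM rests on these control libraries. Length was that of 1 annotated transcript per gene, the best ranked as principal and, among equals, the longest. It need not be the main one in these cells. By it the nuclear members had a median of 1078 bases and other protein-coding genes 3052. At 1000 µM, among other protein-coding genes under 1000 bases, 375 of 680 were lower with a median log2 fold change of −0.65, and among the 40 nuclear members of that length 35 were lower with a median of −0.83. From 1000 to 2500 bases the medians were −0.26 for 4218 other genes and −0.48 for 28 members. Over 2500 bases they were 0.16 for 7892 other genes and −0.42 for 15 members, of which 6 were lower. That class depends on the transcript taken, as it holds SDHC at 13566, NDUFS1 at 11819 and ATP5F1E at 3665 bases. Each library was then corrected for transcript length and GC content together, a choice made after seeing the data and called the length correction here. After it 36 of the 83 were lower, against 18.0% of all genes, with a median of −0.44. Of these, 28 were among the 55 lower without the correction and 8 were not. At 10 µM 37 members were lower after the correction, against 9.87%, and at 100 µM 16, against 2.77%. The same length gradient separated the controls: the median shift of the nuclear members was 0.11, 0.09 and −0.22 on the log2 scale in the 3 controls, and that of other genes under 1000 bases 0.09, 0.08 and −0.17.

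**Figure D4:**
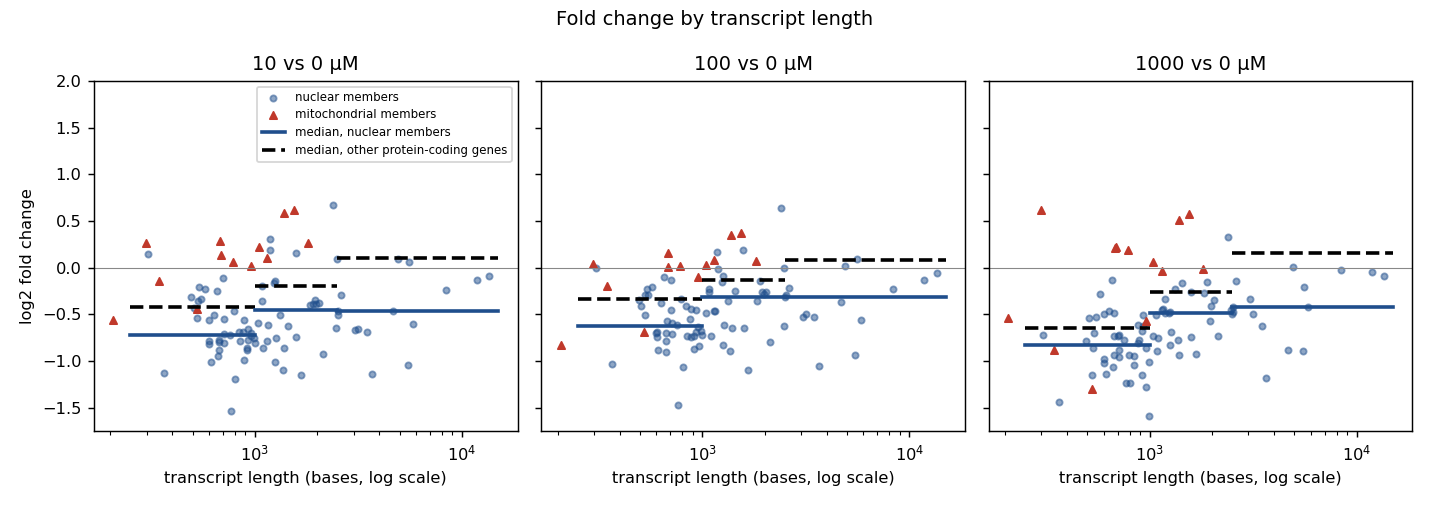
Log2 fold change against transcript length (bases, log scale) at 10, 100 and 1000 µM caffeine, each against 0 µM, for nuclear (circles) and mitochondrial (triangles) members, with the median of the nuclear members (solid) and of other protein-coding genes (dashed) in 3 length classes. The solid lines lie under the dashed ones in every class, at −0.83 against −0.65 for transcripts under 1000 bases at 1000 µM.

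Complex I, the NADH dehydrogenase, had 29 of its 38 nuclear genes lower at 1000 µM (20.6% of all genes were), with a median log2 fold change of −0.77. NDUFA3, an accessory subunit, was at 13.1, 18.1 and 10.5 CPM at 0 µM and at 6.37, 6.72 and 4.12 CPM at 1000 µM, below every control (log2 fold change −1.27 ± 0.21, SE, adjusted p 0.00013). The accessory subunits NDUFA2 (−1.23 ± 0.25, adjusted p 0.00075), NDUFB1 (−1.15 ± 0.25, adjusted p 0.0012) and NDUFA8 (−1.04 ± 0.23, adjusted p 0.0016) fell by similar amounts. Of the 96 members, 36 overlap another annotated gene of the same strand and 44 a gene of the opposite strand. NDUFA3, NDUFA2 and ATP5ME are among the latter, and as the use of strand is not given, reads there can belong to either gene. With the 1 µM reference NDUFA2 (−0.56, adjusted p 0.11), NDUFA8 (−0.49, adjusted p 0.13) and NDUFC1 (−0.18, adjusted p 0.42) lost their calls, and with 0.1 µM NDUFA2 (adjusted p 0.061) and NDUFC1 (adjusted p 0.19) did. Among the nuclear core subunits, which lie in the arm that takes electrons from NADH, NDUFS8 (−0.93 ± 0.16, adjusted p 0.00024) and NDUFS3 (−0.86 ± 0.14, adjusted p 0.00014) fell. NDUFS1, the largest core subunit, did not pass, at 193, 187 and 180 CPM without caffeine and 161, 207 and 174 CPM at 1000 µM. Its groups overlapped (−0.05, 95% interval −0.34 to 0.25). NDUFA10, an accessory subunit, did not pass either (0.01, 95% interval −0.29 to 0.30). Among the accessory subunits that differed over the 7 groups were NDUFB11 (adjusted p 0.00072), NDUFV3 (0.00096) and NDUFC1 (0.00098). NDUFV3 also passed between 1000 and 100 µM (−0.51 ± 0.11, SE, adjusted p 0.0061).

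In complex II 1 of 4 genes was lower, which is near the 20.6% of all genes, and the median log2 fold change was −0.13. SDHB, its iron-sulfur subunit, was at 198, 165 and 156 CPM at 0 µM and 113, 151 and 117 CPM at 1000 µM, all below the controls (log2 fold change −0.45 ± 0.16, SE, adjusted p 0.029). The call was lost with the length correction (−0.17, adjusted p 0.32), without the filter on low counts (adjusted p 0.051), and without 0 µM replicate 1, 1000 µM replicate 1 or 1000 µM replicate 3 (adjusted p 0.14, 0.14 and 0.11). The membrane anchors SDHC (−0.09, 95% interval −0.34 to 0.15) and SDHD (−0.17, −0.82 to 0.49) did not pass. With the length correction SDHC, taken at 13566 bases, was lower (−0.53, adjusted p 0.0030). SDHA, the flavoprotein, was the only member higher at any dose, at 10 µM, with 61.5, 61.5 and 87.1 CPM against 56.7, 35.2 and 40.3 CPM at 0 µM (log2 fold change 0.67 ± 0.22, SE, adjusted p 0.040). At 1000 µM it was at 72.0, 49.1 and 44.4 CPM and overlapped with the controls. SDHA has 4 near-identical copies in the table, SDHAP1 to SDHAP4, and SDHAP3 alone had a median of 1633 counts against 1701 for SDHA, so its level is uncertain.

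In complex III, the cytochrome bc1 complex, 6 of 9 genes were lower at 1000 µM, against 20.6% of all genes. The small subunit UQCR10 was at 110, 140 and 77.3 CPM at 0 µM and 45.5, 63.3 and 38.5 CPM at 1000 µM, below every control (log2 fold change −1.15 ± 0.19, SE, adjusted p 0.00015). Against 1 µM its adjusted p was 0.050. The Rieske iron-sulfur protein UQCRFS1 fell by 0.62 and the cytochrome c1 gene CYC1 by 0.48 on the log2 scale (adjusted p 0.0014 and 0.0086). UQCRC2, a core protein of the complex, did not pass (−0.14, 95% interval −0.44 to 0.16).

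In complex IV, cytochrome c oxidase, 6 of 13 nuclear genes were lower, against the same 20.6%. COX6B1 was at 101, 121 and 69.1 CPM at 0 µM and at 36.8, 65.5 and 37.4 CPM at 1000 µM, with no overlap (log2 fold change −1.06 ± 0.28, SE, adjusted p 0.0056), and it lost its call with the length correction (−0.54, adjusted p 0.13) and against 0.1 or 1 µM (adjusted p 0.11 and 0.31). COX4I1, the ubiquitous form of subunit 4, fell by 0.61 on the log2 scale (adjusted p 0.0015). The 3 mitochondrial core subunits of the same enzyme had positive, uncalled values (0.19 to 0.58). No test of the difference between genomes within the complex was made.

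Complex V held the largest falls of the 96 genes in the uncorrected values. ATP5F1D was at 102, 95.4 and 73.4 CPM at 0 µM, at 57.7, 56.4 and 49.6 CPM at 100 µM, and it reached 36.7, 31.8 and 21.1 CPM at 1000 µM. These 3 groups did not overlap, though at 0.1 and 1 µM 1 library each (75.3 and 96.5 CPM) lay within the control range and the 10 µM mean (51.5 CPM) was under that of 100 µM (54.6 CPM). The level at 1000 µM differed from 0 µM by −1.59 ± 0.22 (log2, SE, adjusted p 2.5e-05) and from 100 µM by −0.87 ± 0.21 (adjusted p 0.011). ATP5ME, a small membrane subunit, was at 34.5, 66.1 and 27.1 CPM at 0 µM and at 13.3, 19.1 and 14.8 CPM at 1000 µM (−1.43 ± 0.26, adjusted p 0.00033). The epsilon subunit ATP5F1E (−1.18 ± 0.23, adjusted p 0.00067), the c-ring gene ATP5MC1 (−1.13 ± 0.24, adjusted p 0.0012) and the stalk subunit ATP5PD (−1.02 ± 0.14, adjusted p 2.3e-05) also fell. Some of these calls were lost with another reference. ATP5ME was at −0.56 against 0.1 µM and −0.63 against 1 µM (adjusted p 0.12 and 0.088), and against 1 µM ATP5F1E was at −0.22 and ATP5MC1 at −0.48 (adjusted p 0.54 and 0.16). Of the subunits that form the catalytic hexamer, ATP5F1A (−0.42, adjusted p 0.089) and ATP5F1B (−0.27, adjusted p 0.20) did not pass, and ATP5F1B was the nuclear member of highest level per length. The mitochondrial MT-ATP6, part of the proton channel, had a log2 fold change of 0.22 (adjusted p 0.71).

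**Figure D5:**
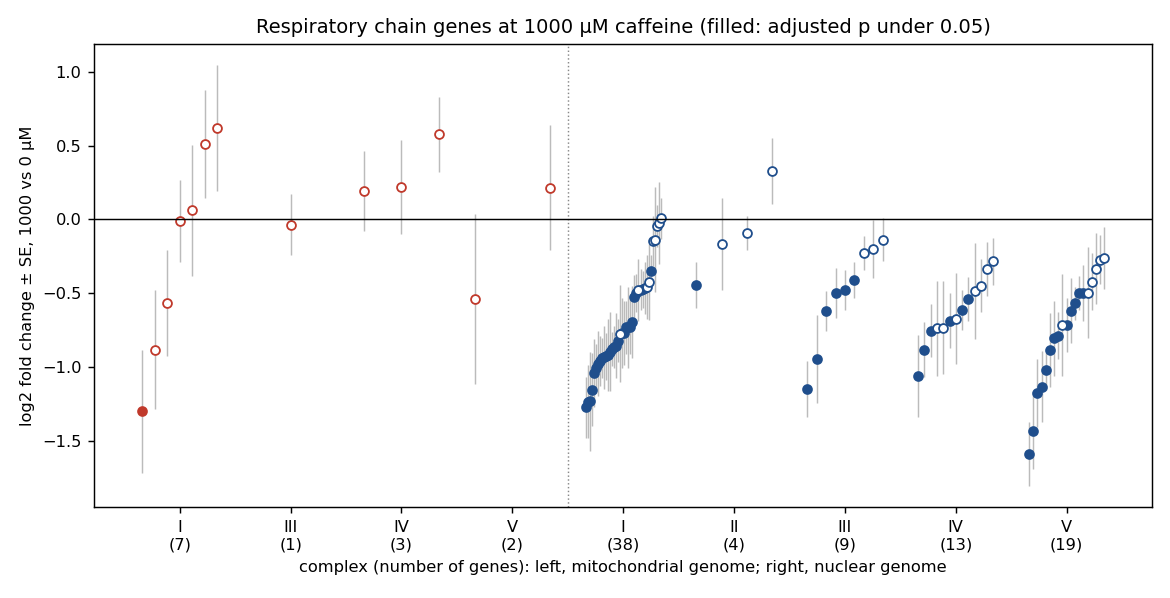
Log2 fold change with its SE at 1000 µM against 0 µM caffeine for every gene, by complex and genome; filled points passed an adjusted p of 0.05. MT-ND6 is the filled point at left, and at right the nuclear genes run from 0.33 (SDHA) to −1.59 (ATP5F1D), with 55 filled.

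Across doses the nuclear counts did not climb in steps. Against 0 µM, 12 nuclear genes were lower and 0 higher at 0.01 µM, where 2.08% of all genes were lower and 2.87% higher. At 10 µM 51 were lower (10.7% of all genes) and SDHA alone was higher (11.3%). For 100 µM there were 21 lower (3.27% of all genes) and 0 higher (2.74%). At that dose 55 of 83 had all 3 libraries below all controls, against 22.0% of all genes, and at 10 µM 63 had, against 23.4%. At 0.1 and 1 µM edgeR called 0 (0.00% of all genes at both). At an unadjusted p under 0.05, 20 and 43 of 83 passed, against 2651 and 3980 of all 17468 genes. DESeq2 called 3 and 21, and its share over all genes is not given here. The median log2 fold changes were −0.38, −0.29, −0.41, −0.61, −0.47 and −0.69 from 0.01 to 1000 µM, so the median was below the shared controls at every dose. Of the 51 genes lower at 10 µM and the 55 lower at 1000 µM, 43 were in both lists (84.3% of the first and 78.2% of the second), and these comparisons share their controls. Between 1000 and 100 µM 5 of 83 were lower, ATP5F1D, NDUFA6, NDUFB10, NDUFS8 and NDUFV3 (6.02%, against 6.55% of all genes) and 0 were higher (8.15%), which was no more than the background. All 3 libraries at 1000 µM lay below all 3 at 100 µM for 21 of 83, against 18.3% of all genes. Among the 7 groups 35 of 83 passed (42.2%, against 28.1%). With the 0.1 µM libraries as the reference in place of 0 µM, a choice made after seeing the data, 20 nuclear genes were lower at 1000 µM (11.5% of all genes were), and with 1 µM as the reference 12 were (10.7%). With either reference 0 were lower at 10 or 100 µM by edgeR, where the share of all genes was 0.00% at 10 µM for both references, and at 100 µM 0.137% for the first and 0.0572% for the second. DESeq2 was not run with these references. At an unadjusted p under 0.05, 30 genes at 10 µM and 8 at 100 µM passed against 0.1 µM, and 3 and 1 against 1 µM. The share of all genes at this cut is not given for these references.

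Several of these counts rested on single libraries. The share of all genes called in the fits with a library left out is not given here. At 1000 µM, leaving out 1 library at a time gave 41 to 61. At 10 µM the count was 23 without 0 µM replicate 1, 28 without 0 µM replicate 2, 21 without 10 µM replicate 1 and 27 without 10 µM replicate 2. At 100 µM it was 0 without 0 µM replicate 2 or without 100 µM replicate 2 or 3, 1 without 0 µM replicate 1 and 8 without 100 µM replicate 1. At 0.01 µM it was 0 without replicate 1 or 2 of either group. At 1 µM it rose to 20 without replicate 1, and at 0.1 µM to 3 without replicate 3. Between 1000 and 100 µM it was 1 without 1000 µM replicate 3 and 2 without 1000 µM replicate 2 or 100 µM replicate 1 or 2. Among the 7 groups it was 17 and 20 without 0 µM replicates 1 and 2, 23 without 1000 µM replicate 3 and 53 without 0.01 µM replicate 1.

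Genes that build or serve the chain were taken from lists of the pathway, and their counts at 1000 µM stand against 20.6% of all genes lower and 20.6% higher. At 1000 µM 10 of 16 complex I assembly factors were lower and 0 higher, led by NDUFAF8 (64.6 ± 9.01 to 20.6 ± 4.62 CPM, SD, n = 3 each) and NDUFAF3 (28.7 ± 3.66 to 15.3 ± 2.17 CPM). Of 37 factors for complexes II to V, 16 were lower, led by PET100, which helps assemble cytochrome c oxidase (−1.85 ± 0.31, adjusted p 0.00015), and UQCC2 of complex III (−1.15 ± 0.27, adjusted p 0.0024). Of 78 mitochondrial ribosomal proteins 52 were lower and 0 higher, with a median of −0.53, and MRPL41 (−1.30 ± 0.19) and MRPL55 (−1.23 ± 0.15) fell most. Among 17 electron carriers and their makers 5 were lower (29.4%), not far from that background, among them the coenzyme Q genes COQ3 (−0.61, adjusted p 0.033) and COQ5 (−0.54, adjusted p 0.024). The 28 genes of mitochondrial DNA expression and upkeep held 5 lower (17.9%) and 4 higher, no more than the background. SLIRP, which binds and stabilises mitochondrial mRNAs (−1.0 ± 0.22), HSD17B10, a subunit of mitochondrial RNase P (−0.67 ± 0.15), and 3 more were lower. MTERF1 (0.54 ± 0.13), MTERF4 (0.35 ± 0.11), the polymerase POLG and the helicase TWNK were higher. With the length correction COQ5 (adjusted p 0.066), HSD17B10 (0.26) and MTERF4 (0.24) lost their calls, as did COQ3, COQ5, HSD17B10 and SLIRP against 0.1 µM (0.072, 0.10, 0.10 and 0.19). Against 1 µM UQCC2 (0.053), COQ3 (0.52), COQ5 (0.45), HSD17B10 (0.47) and MTERF4 (0.096) did.

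Of 8 biogenesis regulators tested, 4 were higher and 1 was lower at 1000 µM, against 20.6% of all genes in each direction. PPARGC1A was at 6.69, 7.69 and 7.69 CPM at 0 µM and at 15.4, 13 and 18.6 CPM at 1000 µM, above every control (log2 fold change 1.09 ± 0.17, SE, adjusted p 9.8e-05), and at 12.4, 11.7 and 9.30 CPM at 10 µM (0.60 ± 0.17, adjusted p 0.020). GABPA, the DNA-binding subunit of GABP, rose by 0.63 ± 0.15 (adjusted p 0.0022), and YY1 and GABPB1 rose by 0.30 and 0.29 (adjusted p 0.0032 and 0.0081). GABPA overlaps the member ATP5PF on the opposite strand, and as the use of strand is not given, reads there can belong to either gene. With the length correction PPARGC1A was at 0.71 (adjusted p 0.0066) and GABPA at 0.24 (adjusted p 0.0064), while YY1 was at 0.02 (adjusted p 0.80) and GABPB1 at −0.04 (adjusted p 0.81). NRF1 (0.15, adjusted p 0.18), PPRC1 (0.27, adjusted p 0.26) and GABPB2 (−0.40, adjusted p 0.069) did not pass, but GABPB2 was lower with the length correction (−0.77, adjusted p 0.0022). ESRRA, a nuclear receptor that works with PGC-1alpha, was the 1 lower gene (−0.53 ± 0.15, adjusted p 0.0089), and it lost its call with the length correction (−0.18, adjusted p 0.42) and against 0.1 or 1 µM (adjusted p 0.13 and 0.66).

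The promoters of the nuclear genes were searched for the letters of these factors' motifs, on both strands, in windows from 250 bases before to 50 after the annotated start (RefSeq, GRCh38.p14), and 67 of the 83 matched an entry. The NRF1 letters, GCGC and TGCGC with any base between them, were in 16 windows (23.9%, against 6.28% of all 27305 promoters and 11.7% of 10946 other genes tested). CCGGAAG (GABP) was in 20 (29.9%, against 10.7% and 19.1%), and AAGATGGC (YY1) in 11 (16.4%, against 3.03% and 5.23%). Any of them was in 29 of the 48 genes lower at 1000 µM (60.4%) and in 9 of the 19 others (47.4%), a difference that was not tested. The background for any motif was 17.9% of all promoters and 31.6% of other genes tested. By single motif, lower genes and the others were close, at 25% and 21.1% for NRF1, 29.2% and 31.6% for GABP and 16.7% and 15.8% for YY1. Of the nuclear genes named by the size of their fall or by their p, 3 held a match within 120 bases upstream of the start, and these stretches are shown with the match in capitals, 5′ to 3′ on the gene's strand.
NDUFA3: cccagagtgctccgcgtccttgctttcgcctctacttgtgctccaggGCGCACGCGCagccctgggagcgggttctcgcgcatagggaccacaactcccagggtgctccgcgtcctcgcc
COX6B1: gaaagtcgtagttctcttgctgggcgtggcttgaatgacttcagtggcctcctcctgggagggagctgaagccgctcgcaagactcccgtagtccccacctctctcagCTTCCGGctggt
ATP5PD: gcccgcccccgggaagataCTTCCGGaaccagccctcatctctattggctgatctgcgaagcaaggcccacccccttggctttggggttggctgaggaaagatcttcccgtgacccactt
They lie at chr19:54102735-54102854 (plus strand), chr19:35648203-35648322 (plus) and chr17:75046970-75047089 (minus). NDUFA3 holds the NRF1 letters, read here on the opposite strand, with the last base 64 bases before the start. COX6B1 and ATP5PD hold the GABP letters on the opposite strand, 6 and 95 bases before it. A match is a description of the sequence and no evidence of binding.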

How the data were processed

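The authors deposited raw read counts, whole numbers by gene, in 1 table. HISAT2, DESeq2 and GRCh38 are named in the submitters' processing notes, and the counting program, annotation and use of strand are not given in the sources used here. The table has 42 columns of samples: 21 belong to the samples described, and 21 others were not used. Symbols came from a table of Ensembl IDs, and positions and transcript lengths from GENCODE v29. Where the series text and the sample labels differ on the control compound, the sample labels (caffeine, 0 µM) were followed.

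All 21 libraries were fitted in edgeR 4.0.16 (R 4.3.3) by quasi-likelihood, after TMM scaling and a filter (minimum count 10), with p-values adjusted (Benjamini-Hochberg) over 17468 genes and a threshold of 0.05. Called, higher and lower mean past that threshold. CPM are scaled by TMM, and shares use all counts. Alternatives were DESeq2 1.42.0, no filter, mitochondrial genes left out of the scaling, only the 6 libraries compared, a replicate block, the mitochondrial share as a covariate and each library left out. A length and GC correction (splines with 5 degrees of freedom, 89.8% of genes covered) and other references were added after seeing the data. Scripts were tested on simulated data.

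The members, the pathway lists and the markers were chosen with earlier results of these data known. Named were all mitochondrial members, up to 10 nuclear members higher and 10 lower at 1000 µM by fold among those called and separated from the controls, the 5 of smallest p among the 7 groups, complex II, up to 2 higher and 2 lower per pathway list and all biogenesis regulators. Others, such as NDUFS1, NDUFS3, NDUFA10, UQCRC2, ATP5F1A, POLG and TWNK, were chosen after their values were seen.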

Additional observations from a re-analysis of the deposited data

How the results depend on the processing

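With DESeq2, 22 nuclear genes were called at 0.01 µM and 37 at 100 µM, and the counts for 0.1 and 1 µM were 3 and 21. Without the filter on low counts 3 were called at 1 µM. With only the 6 libraries compared, 0 were called at 0.01 µM, 57 at 100 µM and 15 between 1000 and 100 µM. With the mitochondrial share as a covariate the counts were 0 at 0.01 µM and 9 between 1000 and 100 µM, and with the length and GC correction 3 at 0.01 µM and 36 at 1000 µM. The replicate block gave 0 at 0.01 µM and 13 at 100 µM. Libraries of the same number did not as a rule deviate together (63 pairs, correlations −0.437 to 0.249, median 0.0199, 11 over 0.1). That gave no sign of pairing by number, but it cannot settle whether the libraries were paired. With 0.1 or 1 µM as the reference 0 were called at 10 and 100 µM, and 20 and 12 at 1000 µM. Of the mitochondrial genes, 1 was called at 10 µM with DESeq2, and 2 at 1000 µM with DESeq2, without the filter and with the 1 µM reference, while 0 were with the 0.1 µM reference. With only the 6 libraries compared they numbered 1, 2 and 4 at 10, 100 and 1000 µM, and without the filter 3 passed among the 7 groups. The causes were not tested. With the length and GC correction 0.670% of all genes were lower at 0.01 µM and 18.0% at 1000 µM. For the other fits above, the other references aside, and with a library left out, the share of all genes is not given here. A count there can change with the number of calls over all genes.

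Leaving out each library gave nuclear counts of 0 to 18, 0 to 3, 0 to 20, 21 to 53, 0 to 29 and 41 to 61 from 0.01 to 1000 µM, 1 to 5 between 1000 and 100 µM and 17 to 53 among the 7 groups. The mitochondrial counts were 0 to 1 at 10 µM (1 without 10 µM replicate 3), 0 to 2 at 1000 µM (0 without 0 µM replicate 2 or 1000 µM replicate 2 or 3, 2 without 1000 µM replicate 1) and 0 to 4 among the 7 groups (4 without 1 µM replicate 1, 2 without 1 µM replicate 3). The mitochondrial share at 1000 µM was 1.38 points above that at 0 µM (0.568 to 2.23 with a library left out), and the nuclear share −0.278 points (−0.336 to −0.243).

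Some small fold changes at 1000 µM changed sign. With the 1 µM reference they were −0.34 for MT-ND2, −0.0689 for MT-ND4, 0.00518 for MT-CYB, −0.25 for MT-ATP6, −0.00258 for SDHA, 0.0363 for SDHB, 0.00368 for SDHC, 0.12 for SDHD and −0.33 for PPRC1. With the 0.1 µM reference they were 0.27 for MT-ND5, 0.22 for MT-CYB and 0.74 for MT-ATP8. MT-ND5 was at 0.012 with DESeq2, 0.0195 without the filter, 0.00969 with the mitochondrial genes left out of the scaling and 0.0053 with the 6 libraries, and GABPB1 at −0.0365 with the length correction. Leaving out each library gave −0.11 to 0.26 for MT-ND2, −0.17 to 0.22 for MT-ND5, −0.22 to 0.17 for MT-CYB, −0.14 to 0.0178 for SDHC and −0.39 to 0.0703 for SDHD. Of 739 values of 51 named genes, 655 kept their direction and their side of the threshold.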
